A study of Mus musculus with 4 samples.

Results

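The circadian clock genes of brown adipose tissue, whose adipocytes turn fuel into heat, were examined in mice that lack Tsku and in wild-type mice. The gene for tsukushi, a secreted small leucine-rich proteoglycan, is the one deleted. The 10 genes asked for were Arntl, Clock, Per1, Per2, Per3, Cry1, Cry2, Nr1d1, Nr1d2 and Dbp, and a gene was kept where a probe set of the array is annotated with that single symbol. That left 9 of the 10, out of 22180 genes in all. Per2 was not kept, because its 1 listed probe set carries a further symbol, and it was not analysed here. Each of the 9 had 1 probe set. The knockout group (KO) is 2 Tsku knockout samples and the wild-type group (WT) is 2 samples without the deletion. All 4 come from C57BL/6 males aged 4 months that ate chow, and each was hybridised to 1 whole-transcript array. The labels give no time of day, light schedule or feeding state at collection, and do not say in which cells or how Tsku was deleted.

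In mammals the clock is a loop of transcription that turns once a day in nearly every cell. CLOCK and BMAL1, the latter encoded by Arntl, bind E-box sequences and switch on the Per and Cry genes, whose proteins then silence CLOCK and BMAL1. The same pair switches on Nr1d1 and Nr1d2, which encode the REV-ERB nuclear receptors that repress Arntl, and Dbp, an activator that acts through D-box sequences. In mouse tissues the transcripts of Arntl and of the output genes Nr1d1 and Dbp therefore run in opposite phase with a large daily swing, Per transcripts peak around the end of the light phase, and Cry1 peaks later. In mouse brown fat REV-ERB alpha is also known to repress Ucp1, the uncoupling protein gene. Tissues taken at different clock times can thus differ one way in Arntl and the other way in the output genes, though not every pair of times does so.

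The letters through which the loop is wired were read from RefSeq promoter windows of GRCm38.p6, each running from 250 bases before a transcription start to 50 bases after it. Windows were listed for 9 of the 10 genes. The following stretches are shown because they belong to the clock genes with the largest differences between genotypes (Per1, Cry1 and the further clock gene Ciart) and to the genes that stand for the other elements of the loop. Each is written along the strand of its gene, and capitals mark the motif: the E-box CACGTG, its variant CACGTT, the D-box TTATGTAA, or TAGGTCA, a core to which REV-ERB and ROR receptors bind.
Per1 E-box, chr11:69098766-69098805, plus strand: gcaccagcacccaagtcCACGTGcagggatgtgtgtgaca
Cry1 E-box, chr10:85185092-85185131, minus strand: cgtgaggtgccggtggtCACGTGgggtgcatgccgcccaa
Ciart E-box, chr3:95882322-95882361, minus strand: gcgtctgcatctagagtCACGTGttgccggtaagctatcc
Ciart E-box nearest the start, chr3:95882250-95882289, minus strand: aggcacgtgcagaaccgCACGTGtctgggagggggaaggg
Nr1d1 E-box variant (reverse letters), chr11:98775383-98775422, minus strand: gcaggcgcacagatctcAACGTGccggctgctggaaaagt
Per3 first D-box, chr4:151044847-151044886, minus strand: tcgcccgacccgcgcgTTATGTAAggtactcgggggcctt
Per3 D-box nearer the start, chr4:151044800-151044839, minus strand: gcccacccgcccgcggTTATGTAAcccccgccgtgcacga
Arntl receptor core, chr7:113207530-113207557, plus strand: aaggcagaaagTAGGTCAgggacggagg

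Both strands were searched, and no 2 of the motifs can share the same position. The E-box was found in windows of 2 of the 9 genes, Per1 and Cry1, against 8.09% of the 27025 genes with a window and 7.15% of all 32851 windows. The motif begins at position -166 in the Per1 window and at -60 in that of Cry1, where the start base is 1. CACGTT was found in windows of 3 of the 9 (Cry1, Cry2 and Nr1d1) against 5.44% of genes and 4.68% of windows. The D-box was found in 1 of the 9, Per3, which holds 2 copies at -205 and -158, against 1.11% of genes and 0.938% of windows. TAGGTCA was found in 1 of the 9, Arntl, beginning at position 31 after the start, against 2.97% of genes and 2.61% of windows. Ciart holds 3 E-boxes, and Tef and Bhlhe41 hold E-boxes too. A match describes letters only. The windows of Dbp, Nr1d2 and Clock held none of the 4 motifs, which says nothing about binding elsewhere in these genes.

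All values are log2 expression values, in which a step of 1 is a doubling, and each level carries an offset of unstated origin. Background was taken on each array from 1400 odorant and pheromone receptor probe sets, as their 95th percentile, and lay between 0.63 and 0.81. Array medians lay between 0.56 and 0.58, and between 50.2% and 53.4% of genes were above background. Pearson's r between arrays, across genes, which are not independent replicates, ran from 0.977 to 0.985. The targeted gene Tsku had no listed probe set, so the genotypes rest on the labels. With so few arrays the precision is low, and for the median gene the 95% interval reached 0.52 to each side of the log2 difference. Apart from the words biological replicate, the labels do not tie samples to separate mice, so the spread behind each p-value could be technical. As a check of the tissue, 11 of 12 brown adipocyte markers were above background on all 4 arrays, and Ucp1 read 9.993 and 10.001 in KO, against 9.524 and 9.375 in WT.

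Per1 and Cry1 were lower on both KO arrays than on both WT arrays, Arntl was slightly higher, and Clock, Per3, Cry2, Nr1d1, Nr1d2 and Dbp overlapped between genotypes. None of these differences passed the test. In a whole tissue, fewer cells of a type and less RNA per cell cannot be told apart. Among the 9 genes, 8 were above background on all 4 arrays, the exception being Cry1 on 1 KO array. With limma and Benjamini-Hochberg adjustment over all genes, 0 of 9 had an adjusted p under 0.05 (background 0% of 22180 genes), and their adjusted p-values ran from 0.872 to 0.999. At an unadjusted limma p under 0.05 there were 2 of 9 (background 5.56%). Both, Per1 and Cry1, were lower in KO (background 2.67%), and 0 of 9 were higher in KO (background 2.89%). The KO and WT arrays did not overlap in 3 of 9 genes, where the background was 35.2%: Arntl had KO above WT (background 19.4%), and Per1 and Cry1 had KO below WT (background 15.8%). The median log2 difference of the 9 was 0.002, against 0.02 over all genes, and the median absolute difference was 0.13, against 0.18 over all genes. The non-overlapping share was close to that of the whole array, and the unadjusted count rests on 2 genes, neither of which passed.

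**Figure D1:**
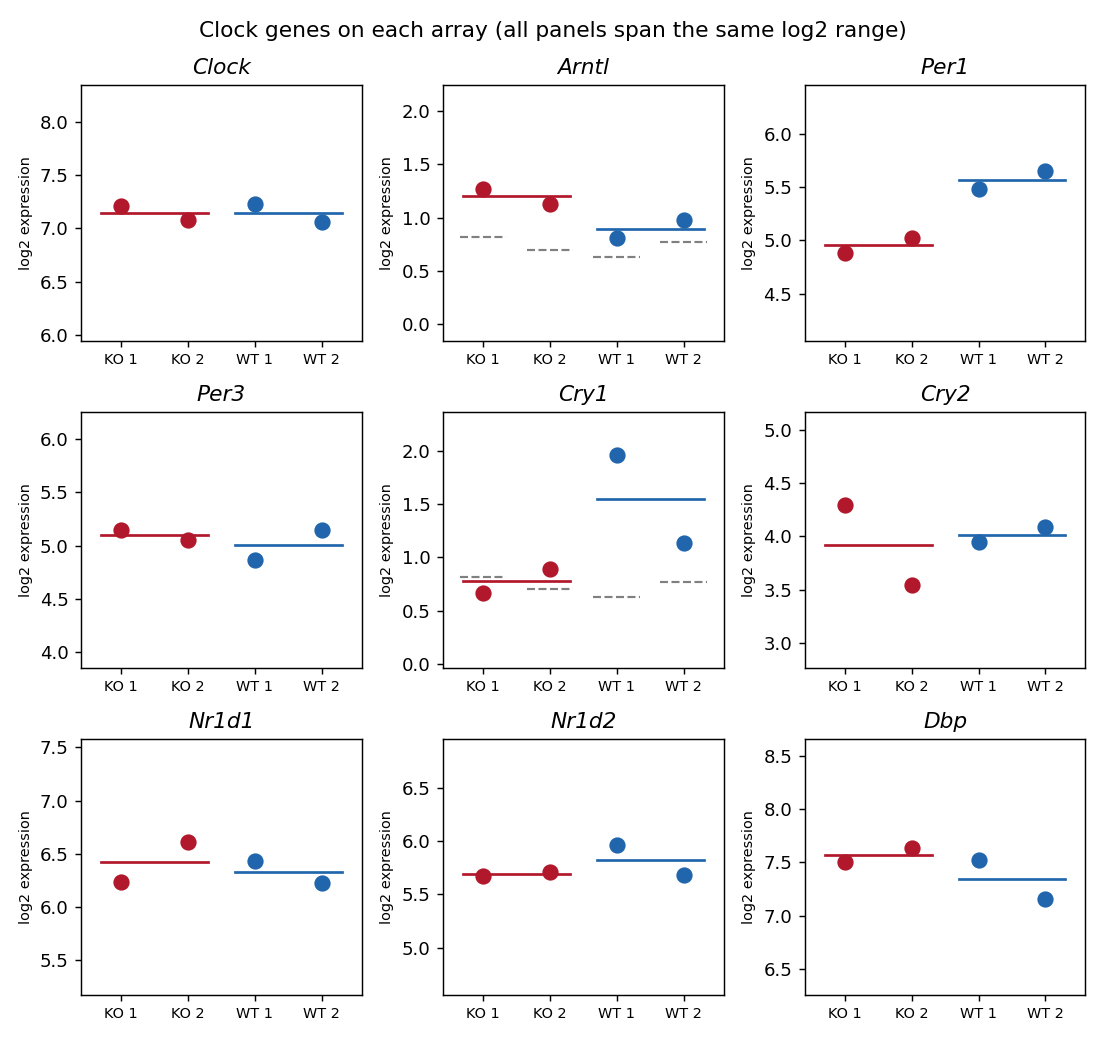
Log2 expression of each of the 9 clock genes on the 4 arrays (red, KO; blue, WT), with solid lines at the mean of each genotype (n = 2) and dashed grey lines at each array's background where it falls in the panel. Every panel spans the same log2 range; Per1 and Cry1 lie lower on both KO arrays, Arntl slightly higher, and the other genes overlap.

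The activators come first. Clock, the DNA-binding partner whose transcript is known to swing little over the day, read 7.21 and 7.08 in KO, against 7.23 and 7.06 in WT. The genotypes overlapped fully and the log2 difference was 0.002 (SE 0.19, 95% interval -0.46 to 0.47). Its range over the 4 arrays, 0.17, was narrower than that of all but 5.44% of the 9921 genes above background on all arrays. Arntl, the partner that carries the rhythm, read 1.27 and 1.12 in KO, against 0.81 and 0.98 in WT. Both KO arrays were thus above both WT arrays. The log2 difference was 0.31 (SE 0.19, 95% interval -0.16 to 0.77, limma adjusted p = 0.895), and 26.2% of all genes had an absolute difference at least as large. Arntl was dim everywhere. It stood above the background of its own array by 0.46 and 0.42 in KO and by 0.17 and 0.20 in WT.

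The Period genes encode the repressors that accumulate as the light phase ends, and Per1 is also switched on directly by glucocorticoids and by cAMP signals. Per1 read 4.89 and 5.02 in KO, against 5.48 and 5.65 in WT. The 2 KO arrays lay close together and below both WT arrays. The means were 4.95 ± 0.10 in KO and 5.57 ± 0.12 in WT (SD, n = 2 each), so that KO minus WT was -0.61 on the log2 scale (SE 0.19, 95% interval -1.08 to -0.15) and KO stood at 0.653 of the WT level. This was the smallest p of the 9 genes (limma unadjusted p = 0.0175), but over all genes the adjusted p was 0.872, and 5.38% of all genes differed by as much or more. Leaving out single arrays gave values from -0.70 to -0.53. Markers of skeletal muscle were lower in the same KO samples, all 18 of them, with a median log2 difference of -1.74 and a summed level on the linear scale of 80.0 to 223 in KO, against 332 to 536 in WT, and their part in the Per1 values was not tested. Per3 read 5.15 and 5.06 in KO, against 4.87 and 5.15 in WT. One WT array equalled the higher KO array at this rounding, and the log2 difference was 0.09 (SE 0.20, 95% interval -0.39 to 0.58). Without WT replicate 1 the Per3 difference was -0.045, so its direction rests on that array. The difference between Per1 and Per3 was not tested.

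The cryptochromes are the strongest repressors of CLOCK and BMAL1, and Cry1 is the one with the late phase. Cry1 read 0.66 and 0.89 in KO, against 1.96 and 1.14 in WT. In KO 1 of 2 arrays was above background, and in WT both were. The log2 difference was -0.77 (SE 0.31, 95% interval -1.52 to -0.03, limma unadjusted p = 0.0447, adjusted p = 0.872) or 0.585 of the WT level. WT replicate 1 stood apart, and the WT arrays differed from each other by 0.82, more than the genotype means did. Without WT replicate 1 the difference was -0.36, and without WT replicate 2 it was -1.18. Cry2, the less rhythmic paralog, read 4.29 and 3.54 in KO, against 3.95 and 4.09 in WT. Here the KO arrays lay on either side of WT, 0.75 apart, and the log2 difference of -0.10 (95% interval -0.79 to 0.59) turned to 0.27 without KO replicate 2. For both cryptochromes the replicates of 1 genotype thus lay further apart than the genotype means did.

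The REV-ERB genes form the second loop, which silences Arntl. Nr1d1 read 6.23 and 6.61 in KO, against 6.43 and 6.23 in WT, so that each genotype had 1 array near 6.23. The log2 difference was 0.09 (SE 0.22, 95% interval -0.44 to 0.62). It was 0.28 without KO replicate 1 and turned to -0.097 without KO replicate 2 and to -0.012 without WT replicate 2. Nr1d2 read 5.67 and 5.71 in KO, against 5.96 and 5.68 in WT. WT replicate 1 was the high array and the other 3 lay within a narrow band. The log2 difference was -0.13 (SE 0.20, 95% interval -0.61 to 0.35), and 0.0076 without WT replicate 1. Dbp, the activator that relays clock time through D-boxes such as the pair in the Per3 promoter, read 7.51 and 7.64 in KO, against 7.53 and 7.15 in WT. WT replicate 2 was the low array, and WT replicate 1 fell between the KO arrays. The log2 difference was 0.23 (SE 0.21, 95% interval -0.29 to 0.75). Without WT replicate 2 it was 0.05, and without WT replicate 1 it was 0.42.

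**Figure D2:**
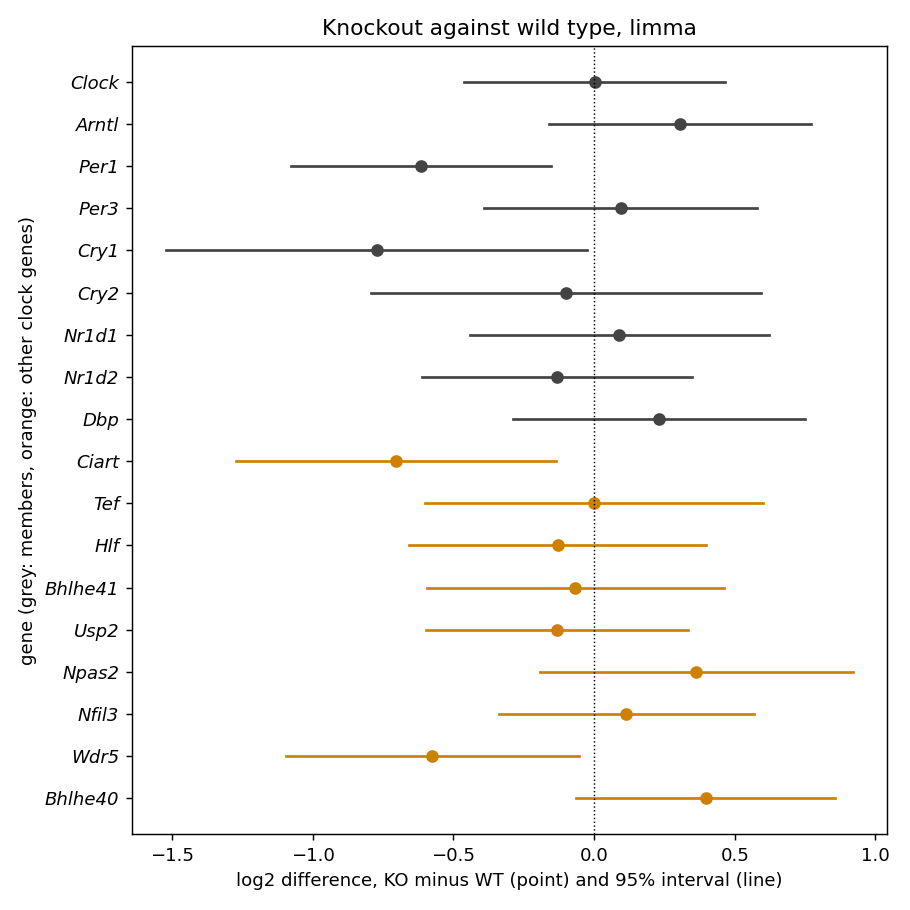
Log2 difference between KO and WT (points) with its 95% interval (lines) from limma, for the 9 clock genes (grey) and 9 further clock genes (orange). The intervals of Per1, Cry1, Ciart and Wdr5 lie below 0 before any adjustment for the number of genes tested, and all others include 0.

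Clock phase was then compared array by array. The 3 genes with the widest daily swing in mouse tissues, Arntl, Nr1d1 and Dbp, ranged over the 4 arrays by 0.46, 0.38 and 0.48 on the log2 scale. These ranges lay at the 41.9th, 30.0th and 44.4th percentile of the 9921 genes above background on all arrays. The median range of the 9 clock genes was 0.46, against 0.53 for those 9921 genes. The widest ranges belonged to Cry1 (1.30, the 95.3rd percentile), Per1 (0.77, the 74.4th) and Cry2 (0.75, the 72.8th). Cry1 was ranked against the 9921 genes without being among them, since it was above background on only 1 KO array.

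**Figure D3:**
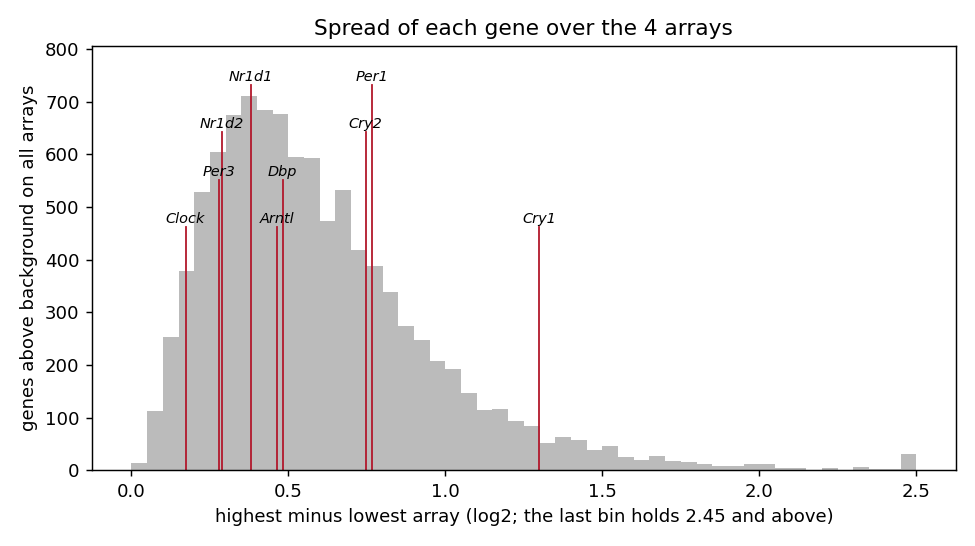
Histogram of the highest minus the lowest of the 4 arrays (log2) for the 9921 genes above background on all arrays, with red lines at the 9 clock genes. Most clock genes fall in the bulk of the histogram, Clock at 0.17 near its low end and Cry1 at 1.30 in its upper tail. Cry1 is not itself among the 9921 genes.

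Between the 2 KO arrays 1 of 9 clock genes, Cry2, differed by at least 0.58 on the log2 scale (about 1.5-fold), where 14.3% of all genes did. Between the 2 WT arrays it was 1 of 9, Cry1, with 13.1% of all genes. Between genotypes it was 2 of 9 (Per1 and Cry1) for KO replicate 1 against WT replicate 1, with 16.1% of all genes, and 1 of 9 (Per1) for KO replicate 1 against WT replicate 2, with 16.6%. For KO replicate 2 it was 1 of 9 (Cry1) against WT replicate 1, with 10.8% of all genes, and 1 of 9 (Per1) against WT replicate 2, with 13.8%. The median absolute difference of the clock genes was 0.14 between the KO arrays, against 0.23 over all genes, and 0.20 between the WT arrays, against 0.23 over all genes. For KO replicate 1 it was 0.29 against WT replicate 1, where all genes gave 0.25, and 0.20 against WT replicate 2, where all genes gave 0.25. For KO replicate 2 it was 0.25 against WT replicate 1, where all genes gave 0.22, and 0.25 against WT replicate 2, where all genes gave 0.23. The median of the clock genes was thus below that of the whole array in both pairs within a genotype. Between genotypes it was above, except for KO replicate 1 against WT replicate 2. For KO replicate 2 against WT replicate 2 it was 0.246, below the 0.253 of the 9921 genes above background on all arrays. These differences were not tested.

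A shift in phase can move the output genes against the activators, so the balance of both arms was computed for each array. It was the mean deviation of Per1, Per3, Nr1d1, Nr1d2 and Dbp from their own means, minus that of Arntl and Clock. The balance was -0.24 and 0.02 in KO, against 0.15 and 0.07 in WT. Both KO arrays lay below both WT arrays, but KO replicate 1 lay lowest and the other 3 arrays lay close together. The difference of the group means was -0.22, against a pooled SD between replicates of 0.13. It was -0.093 without KO replicate 1 and -0.35 without KO replicate 2. Without Per1 the balance was -0.17 and 0.08 in KO, against 0.11 and -0.03 in WT, so that the genotypes overlapped, and the difference was -0.083. The balance rests on few genes that share each array, and no test was made of it. Its activator arm is Clock, whose transcript swings little over the day, and Arntl, which was dim on every array. The median log2 difference of that arm was nonetheless 0.15, from 0.31 for Arntl and 0.002 for Clock. The balance was not computed without Arntl, so how far it rests on this dim gene was not tested.

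The same balance was computed with clock genes outside the 10. Its output arm held Ciart, a repressor of CLOCK and BMAL1, Tef and Hlf, the D-box activators related to Dbp, Bhlhe41, an E-box repressor, and Usp2, a deubiquitinase under clock control. Its activator arm held Npas2, a paralog of Clock, and Nfil3, which represses through D-boxes and runs in phase with Arntl. The output arm did not hold Bhlhe40, a further E-box repressor, whose log2 difference of 0.40 had KO above WT. The balance was -0.16 and -0.29 in KO, against 0.21 and 0.24 in WT, a difference of -0.45 with a pooled SD of 0.07. Here too both KO arrays lay below both WT arrays. Without Ciart it was -0.07 and -0.25 in KO, against 0.17 and 0.15 in WT, and the difference was -0.32. Ciart and Npas2 differed the most of these 7 genes. Ciart read 2.39 and 2.78 in KO, against 3.12 and 3.46 in WT, and Npas2 read 0.64 and 1.04 in KO, against 0.34 and 0.61 in WT. For Npas2 only KO replicate 2 was above background. Npas2 belongs to an activator arm of 2 genes, and its log2 difference was 0.36. The balance was not computed without Npas2, so how far it rests on this dim gene was not tested.

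**Figure D4:**
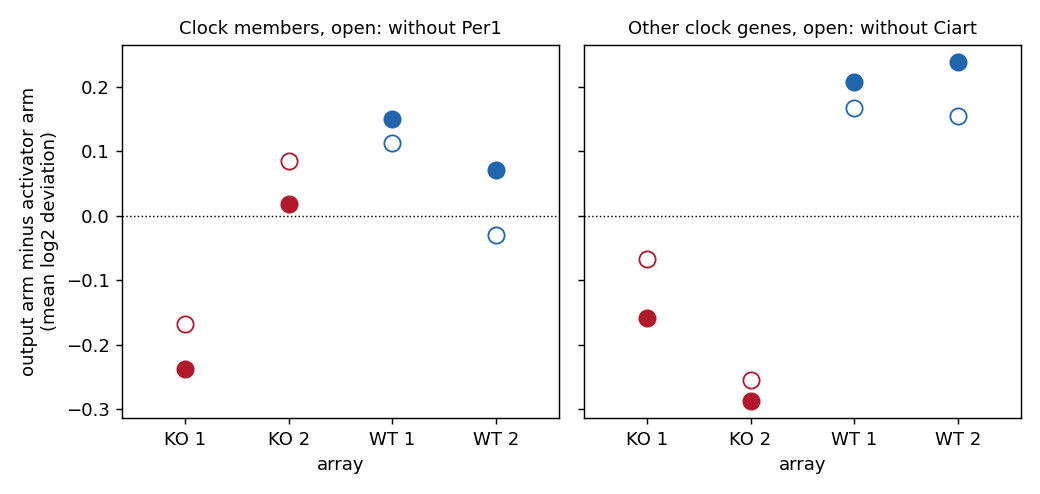
Balance of the clock on each array (mean log2 deviation of the output genes minus that of the activator genes; red, KO; blue, WT), for the clock genes asked for (left) and for clock genes outside them (right), with open circles without Per1 or Ciart. On the left the KO arrays, at -0.24 and 0.02, overlap WT once Per1 is left out, and no version leaves out Arntl. On the right both KO arrays lie below both WT arrays with and without Ciart, and no version leaves out Npas2.

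The other output genes differed little. Tef had a log2 difference of 0.00 (95% interval -0.60 to 0.60), Hlf one of -0.13 (-0.66 to 0.40), Bhlhe41 one of -0.07 (-0.59 to 0.46) and Usp2 one of -0.13 (-0.60 to 0.34). Nfil3 differed by 0.11 (-0.34 to 0.57). Tef and Bhlhe41 hold an E-box in their windows as Per1, Cry1 and Ciart do.

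Of 25 further genes of the clock and its regulators, 22 were measured and 20 were above background on all 4 arrays. With limma 0 of 22 passed at an adjusted p under 0.05, the lowest being 0.872. Of the 22, 2 had an unadjusted p under 0.05 (background 5.56%), and both were lower in KO (background 2.67%). The genotypes did not overlap in 11 of 22, 7 with KO above WT and 4 with KO below WT (background 35.2%, 19.4% and 15.8%). The median log2 difference was 0.04. The 4 with the smallest p were Ciart, Wdr5, Bhlhe40 and Npas2. Ciart differed by -0.70 (SE 0.23, 95% interval -1.27 to -0.14, limma unadjusted p = 0.0232). Wdr5, a subunit of histone methyltransferase complexes that is known to associate with Period proteins, read 2.31 and 2.71 in KO, against 3.12 and 3.05 in WT, a difference of -0.58 (SE 0.21). Bhlhe40, an E-box repressor that responds to many stimuli, read 6.89 and 6.75 in KO, against 6.50 and 6.35 in WT, a difference of 0.40 (SE 0.19, 95% interval -0.06 to 0.86). All 4 had the KO arrays on one side of the WT arrays.

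**Figure D5:**
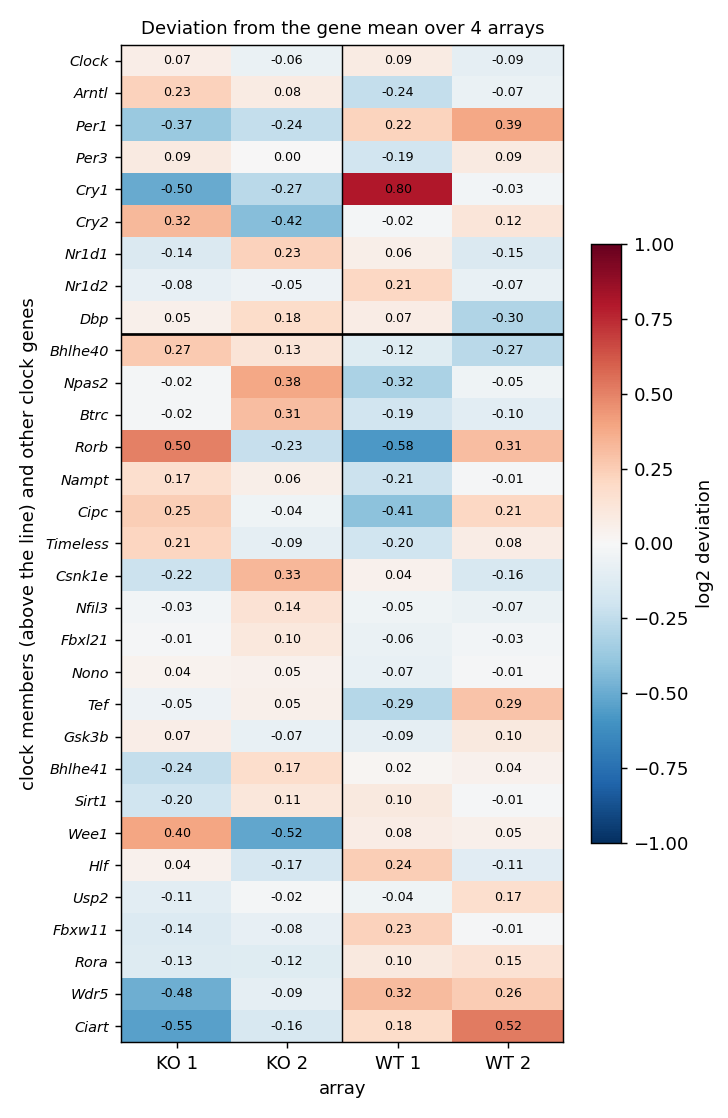
Deviation of each clock gene from its own mean over the 4 arrays (log2, red above and blue below), for the 9 clock genes above the line and 22 further clock genes below it, with KO columns left of WT columns. Per1 and Ciart are low on both KO arrays and high on both WT arrays, whereas Nr1d1, Per3 and Tef change sign within a genotype.

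Signals that reach the clock were set beside Per1. Of 12 glucocorticoid-responsive genes 10 were lower in KO, with a median log2 difference of -0.14; 0 passed, and 1 had an unadjusted p under 0.05 (background 5.56%). Their median deviation was -0.17 and 0.06 in KO, against 0.06 and 0.03 in WT, so it was KO replicate 1 that was low. For 12 immediate early genes it was -0.50 and 0.54 in KO, against 0.13 and -0.08 in WT. The KO arrays thus lay on either side of WT. For 9 measured genes that respond to temperature it was -0.15 and -0.02 in KO, against 0.18 and -0.06 in WT. Of these 9 genes 7 were lower in KO and 2 higher, with a median log2 difference of -0.12. None passed, and 1 had an unadjusted limma p under 0.05 (background 5.56%). KO lay below WT without overlap in 3 of them (background 15.8%) and above in 0 (background 19.4%). The part of these signals in the Per1 values was not tested.

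Markers of other cell types were measured beside the clock genes, and 0 of them passed the test. Of the 18 skeletal muscle markers, however, 14 had an unadjusted limma p under 0.05 and were lower in KO (background 2.67%). For 14 of the 18, KO lay below WT without overlap (background 15.8%). Of 13 macrophage markers 12 were lower in KO, with a summed linear level of 164 to 295 in KO, against 279 to 296 in WT. Of 12 hepatocyte markers 11 were higher in KO, and the summed level was 339 to 466 in KO, against 324 to 374 in WT. No muscle or macrophage marker, 1 hepatocyte marker and 3 of 8 white adipocyte markers lay below background on all 4 arrays. All 12 brown adipocyte markers were higher in KO, and for 7 of them KO lay above WT without overlap (background 19.4%). For 9 endothelial markers the summed level was 516 to 685 in KO, against 512 to 606 in WT, for 8 white adipocyte markers it was 378 to 588 in KO, against 410 to 435 in WT, and for 12 brown adipocyte markers it was 4326 to 4391 in KO, against 3648 to 3779 in WT. The part of these cell types in the values of the clock genes was not tested.

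Patterns like those of Dbp and Arntl were sought among 10353 genes, by the largest absolute difference over the 4 arrays between the deviations of a gene and those of the clock gene. Nearest to Dbp were Ehd3 (0.01), Trim8 (0.02) and Cdh1 (0.03), and nearest to Arntl were Ddx51 (0.02), Atp6v0d1 (0.03) and Ccdc93 (0.04). With 4 arrays such matches are not confined to a few genes: 173 of the 10353 (1.67%) lay within 0.1 of Dbp and 116 (1.12%) within 0.1 of Arntl. None of the 6 was among the further clock genes.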

How the data were processed

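The authors deposited 1 table of log2 expression values for 41345 probe sets on 4 arrays. The submitters' processing notes name oligo, RMA and limma, with no role or version. The base of the log2 values is taken from RMA, and the genome build is not given in the sources used here. The platform annotation named the probe sets, and the 23521 with 1 symbol were used (1814 had several and 16010 none listed). The probe set with the highest mean was kept for each of 22180 genes. KO was compared with WT by lmFit and eBayes of limma 3.58.1 under R 4.3.3, two-sided, without block or filter, with Benjamini-Hochberg adjustment over all genes at 0.05. Residual degrees of freedom were 2 and prior degrees of freedom 3.96. The scripts were tested on simulated data.

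The genes named are the 10 asked for, the 7 of the second balance, the 4 further clock genes with the smallest p, and the 3 nearest in pattern to Dbp and to Arntl among genes brighter than the median, predicted genes and receptor or small RNA genes left out. Ucp1 is named as a tissue check. Members, lists and tests were chosen with earlier results of these data known. Per2 was meant to stand in the output arm and was left out as above. Alternatives covered a replicate block, a filter on dim genes, other probe set rules, normalization, prior variances and each array left out.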

Additional observations from a re-analysis of the deposited data

How the results depend on the processing

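Over 13 alternatives the 9 clock genes gave 117 log2 differences, of which 107 kept their direction. Many of these could not turn. The replicate block, the filter, the probe set rules and the prior variances left every difference unchanged, because each gene had 1 probe set and the design was balanced. Only normalization and leaving out an array could turn a direction. With all 4 arrays none passed (lowest limma adjusted p 0.764, for Per1 with the filter). Arntl, Per1, Cry1 and Dbp kept their direction throughout, but their size moved with single arrays left out. Arntl then ran from 0.22 to 0.39, Per1 from -0.70 to -0.53, Cry1 from -1.18 to -0.36 and Dbp from 0.045 to 0.42. The direction turned for Clock with quantile normalization (-0.0071), median centring (-0.0027) and cyclic loess (-0.0051). With single arrays left out Clock ran from -0.084 to 0.089, Per3 from -0.045 to 0.23, Cry2 from -0.47 to 0.27, Nr1d1 from -0.097 to 0.28 and Nr1d2 from -0.27 to 0.0076. The arrays whose absence turned a direction were KO replicate 1 and WT replicate 2 for Clock, KO replicate 2 for Cry2, KO replicate 2 and WT replicate 2 for Nr1d1, and WT replicate 1 for Per3 and Nr1d2. The unadjusted limma p of Per1 ran from 0.00849 to 0.0917 and that of Cry1 from 0.00258 to 0.240. The count of genes past the threshold, 0, became 1 with a mean trend and 0 to 15 with single arrays left out, and no member or further clock gene was among them. With a replicate block it became 1. The numbers do not pair samples by any label, and the differences between replicates 1 and 2 of KO and WT correlated at -0.07 across genes. In alternatives chosen after seeing the data, the balance of output and activator genes moved to -0.083 without Per1, and that of the further clock genes to -0.32 without Ciart. With single arrays left out these balances ran from -0.35 to -0.093 and from -0.51 to -0.38. Signal near background limits what Arntl, Cry1 and Npas2 can show.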
